A study of Caenorhabditis elegans with 2 samples.

Results

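Chromatin immunoprecipitation and sequencing (ChIP-seq) of the transcription factor MEF-2 in Caenorhabditis elegans larvae placed 356 of its strongest autosomal sites between or beside the 5' ends of protein-coding genes that are read away from each other. They were chosen from the authors' list of both replicates pooled. Mitochondrial entries were dropped and the 3000 strongest entries by signal value kept, of which 2411 lie on autosomes. A site, the point source of an entry, was a member when it was at most 1000 bp upstream or 200 bp downstream of protein-coding 5' ends on both strands. The signal value is the peak caller's own measure, on a scale the sources do not state, and it chose the members, so it is given below as a description with no test. Of the other autosomal sites, 766 lay at 5' ends of 1 strand only, 642 in intergenic sequence, 549 in introns and 98 in exons, and 589 further sites were on X.

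The material was whole L1 larvae, the first larval stage, with males and females pooled, of strain OP301, whose genotype is unc-119(tm4063) III; wgIs301. The integrated transgene wgIs301 supplies MEF-2 fused to eGFP, and the labels name the antibody as mef-2. The labels give 2 biological replicates that form 1 group, with no other stage, genotype or treatment. Both replicates carry the same transgene, and reads from whole animals do not show in which cells a site was bound. The lists give intervals and not expression, so tissue markers could not be checked. The control library against which the lists were called was not analysed here, and the depth of each library is unknown.

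MEF-2 belongs to the MEF2 family of MADS-box factors, which bind an A/T-rich element and are known in vertebrates for muscle and neuronal gene control. In C. elegans it has been described as acting with the histone deacetylase HDA-4 and the kinase KIN-29 on chemoreceptor genes in sensory neurons. A divergent promoter is the stretch between a pair of genes transcribed in opposite directions, and it can hold control sequence for either gene or both. Many C. elegans messenger RNAs receive a spliced leader in place of their original start, so an annotated 5' end can lie downstream of the place where transcription begins.

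The sequences at 7 of the sites are shown because they hold the elements and shared words described further on. Each covers 100 bp to either side of the site, on the plus strand of build ce11 (WBcel235), read from the RefSeq genome. Capitals mark a word of 11 bases that recurs among the sites. The window of T26A8.4/pdtf-1 lies at chrIV:8432886-8433086 and that of the pair hsp-16.2/hsp-16.41 at chrV:1805050-1805250. Both hold the core of the ethanol and stress response element (ESRE), in opposite orientations.
T26A8.4/pdtf-1: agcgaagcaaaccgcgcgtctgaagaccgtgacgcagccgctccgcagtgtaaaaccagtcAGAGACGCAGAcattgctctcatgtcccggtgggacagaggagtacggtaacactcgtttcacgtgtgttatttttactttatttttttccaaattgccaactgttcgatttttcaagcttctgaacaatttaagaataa
hsp-16.2/hsp-16.41: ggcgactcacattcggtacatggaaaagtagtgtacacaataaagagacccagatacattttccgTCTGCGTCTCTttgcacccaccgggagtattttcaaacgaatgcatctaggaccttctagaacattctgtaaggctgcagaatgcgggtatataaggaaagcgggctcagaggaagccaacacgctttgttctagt

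A further word was found at 11 members, 5 of them with a ribosomal protein gene and the others beside genes of other roles. Some of the 11 are shown, among them the site of a respiratory gene. The windows are those of rpl-15/K11H12.8 at chrIV:654823-655023, rpl-20/Y17G9B.5 at chrIV:4749963-4750163 and rbc-2/ndua-8 at chrIII:2528696-2528896. The word reads CGTAAATCGAC or, on the other strand, GTCGATTTACG. The window of rbc-2/ndua-8 holds a second marked word.
rpl-15/K11H12.8: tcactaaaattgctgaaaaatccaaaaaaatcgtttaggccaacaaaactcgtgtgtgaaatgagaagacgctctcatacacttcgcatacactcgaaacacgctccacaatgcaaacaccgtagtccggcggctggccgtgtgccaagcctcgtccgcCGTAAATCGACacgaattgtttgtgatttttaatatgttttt
rpl-20/Y17G9B.5: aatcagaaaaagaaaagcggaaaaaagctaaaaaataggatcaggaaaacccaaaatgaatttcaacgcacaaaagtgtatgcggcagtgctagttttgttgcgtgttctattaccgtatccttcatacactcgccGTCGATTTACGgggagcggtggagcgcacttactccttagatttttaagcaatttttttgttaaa
rbc-2/ndua-8: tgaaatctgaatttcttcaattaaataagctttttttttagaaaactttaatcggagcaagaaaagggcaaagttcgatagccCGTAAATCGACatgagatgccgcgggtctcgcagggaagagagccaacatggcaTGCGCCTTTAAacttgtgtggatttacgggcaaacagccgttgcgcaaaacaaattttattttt

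The last pair of windows shows further words. That of hmgs-1/F25B4.4, where hmgs-1 encodes an enzyme of the mevalonate pathway, lies at chrV:5684654-5684854. That of sec-61.B/trap-3, both genes of protein entry into the endoplasmic reticulum, lies at chrIV:2389050-2389250.
hmgs-1/F25B4.4: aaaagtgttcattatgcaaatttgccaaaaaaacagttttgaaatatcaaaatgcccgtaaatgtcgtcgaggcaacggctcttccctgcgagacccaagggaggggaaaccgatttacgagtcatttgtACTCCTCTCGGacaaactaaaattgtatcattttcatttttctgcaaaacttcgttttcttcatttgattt
sec-61.B/trap-3: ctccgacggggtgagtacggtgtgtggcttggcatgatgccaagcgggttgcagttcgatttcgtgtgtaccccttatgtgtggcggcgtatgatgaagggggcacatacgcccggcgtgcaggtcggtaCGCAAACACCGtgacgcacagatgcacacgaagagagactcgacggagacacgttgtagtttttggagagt

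The sites stood well inside the space between the 5' ends. Of the 356 members, 311 lay between the nearest 5' ends of both strands and 45 within 200 bp downstream of one of them. The 5' ends were a median of 492.5 bp apart (quartiles 331.75 and 732 bp). At the 311 sites between the ends, the nearer 5' end was a median of 162 bp away and the farther one 354 bp. At 122 of these 311 both 5' ends were within 300 bp. Of the 311 sites between the ends, 146 (46.9%) fell in the middle part when the space was divided in 3 equal lengths. The minus-strand gene was nearer at 145 and the plus-strand gene at 166.

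**Figure D1:**
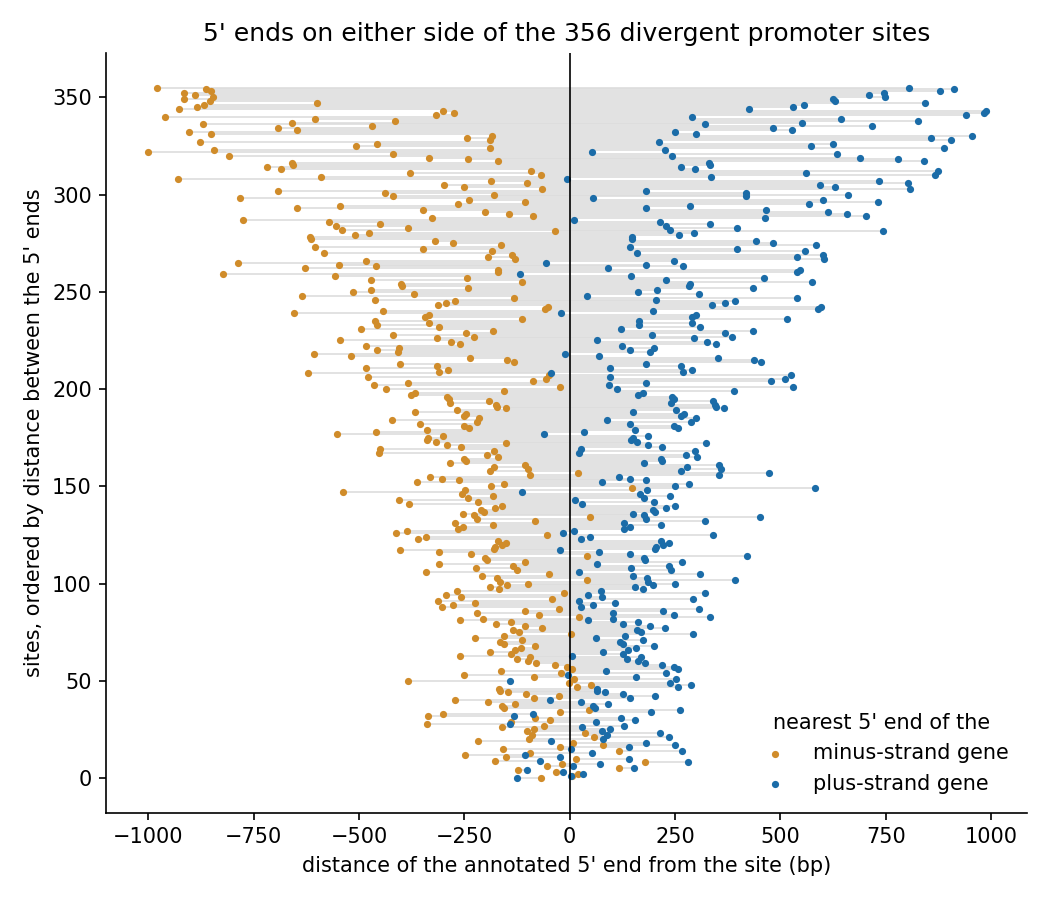
Each row is 1 of the 356 sites, placed at 0 bp, with the nearest annotated 5' end of the minus-strand gene (orange) and of the plus-strand gene (blue) at their distance in bp. Rows run from the shortest to the longest distance between the ends, and most rows have the site between their points.

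Divergent pairs with a medium spacing held a site most often. On the autosomes 2429 pairs of neighbouring 5' ends have overlapping windows, and 353 of them (14.5%, 95% Wilson interval 13.2 to 16.0) held a member. Entries of any strength in the pooled list were found at 939 (38.7%). A member was found in 102 of 451 pairs (22.6%) with 200 to 400 bp between the ends and in 89 of 379 (23.5%) with 400 to 600 bp. For pairs whose ends overlap the share was 2 of 47 (4.26%), with a wide Wilson interval of 1.17 to 14.2%. It was 26 of 242 (10.7%) for those with 0 to 200 bp between the ends. For those 1000 to 2000 bp apart, where the windows overlap less, it was 39 of 717 (5.44%). Per 100 kb of overlap the members numbered 20.9 from 0 to 200 bp, 32.7 from 200 to 400 bp and 26.0 from 400 to 600 bp. They numbered 14.7 from 600 to 1000 bp and 9.47 from 1000 to 2000 bp. Pairs whose ends overlap had 15.8 per 100 kb, from 2 members in 12.6 kb. The intervals here and below cover counting error over sites or genes, not the error between replicates. 3 pairs held a pair of members each, chn-1/T09B4.2, mut-2/K04F10.3 and ecps-1/atx-2.

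Chromosomes III and I had the most divergent pairs with a site and V the fewest. On III, 82 of 395 pairs (20.8%, Wilson interval 17.1 to 25.03) held one, and on I 91 of 441 (20.6%, 17.1 to 24.7). The share was 61 of 447 (13.6%) on IV, 60 of 473 (12.7%) on II and 59 of 673 (8.77%, 6.86 to 11.1) on V. Windows of both strands cover 2.39% of the autosomal length and held 14.8% of the 2411 autosomal sites, which is 18.0 sites per 100 kb. Windows of 1 strand only cover 19.9% of the length and held 31.8% of the sites, or 4.66 per 100 kb. No member lay within 20 kb of mef-2 or unc-119. The nearest to mef-2 was snx-3/rad-54.L on chromosome I, 31.2 kb away, with a signal value of 14.8.

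The genes at the sites were followed closely by another gene on their strand more often than other genes of divergent pairs. Such close spacing is found in worm operons, whose genes are transcribed together. Of the 732 genes at members, 246 (33.6%, Wilson interval 30.3 to 37.1) had a gene on the same strand within 500 bp downstream, against 20.1% (19.0 to 21.4) of 4144 genes in divergent pairs without a member and 28.2% (25.1 to 31.5) of genes at one-direction sites, whose interval overlaps that of the members. In the central stretch of their chromosome, from 25% to 75% of its length, lay 63.3% of the genes at members, against 56.8% of those in divergent pairs without one and 62.4% (Wilson interval 58.9 to 65.8) of genes at one-direction sites, close to the members.

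The strongest divergent sites lay beside genes of protein synthesis. The highest signal value, 112, was at rpl-15/K11H12.8 on chromosome IV, 347 bp upstream of rpl-15 (WBGene00004427), a large-subunit ribosomal protein gene, and 467 bp upstream of K11H12.8. The lists of the single replicates gave it a signal value of 73.2 and rank 9 in replicate 1, and 38.8 and rank 6 in replicate 2. At iff-2/F54C9.14 on II the value was 106, with 70.2 and rank 11 in replicate 1, and 36.4 and rank 9 in replicate 2. This site lay 69 bp upstream of iff-2 (WBGene00002065), which encodes the translation factor eIF5A. The site between rpl-20 (WBGene00004432) and Y17G9B.5 on IV had a value of 101, with 70.4 and rank 10 in replicate 1, and 31.99 and rank 17 in replicate 2. These 3 sites stood high in both replicates.

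Others of the 25 strongest belong to chromatin, the cell cycle and protein folding. The value was 95.6 at nhl-2/tag-340, where nhl-2 encodes a TRIM-NHL protein of the microRNA pathway, 82.5 at T26A8.4/pdtf-1 and 81.4 at K01G5.10/tasp-1. It was 77.1 at ska-3/rps-12, 76.5 at ifet-1/rps-1 and 75.03 at rpl-12/lin-54. In these pairs ska-3 encodes a kinetochore protein, ifet-1 a translational repressor of the germ line and lin-54 the DNA-binding subunit of the DRM complex, which represses cell cycle genes. Pairs with chromatin genes were wapl-1/htz-1 at 70.6, drr-2/set-16 at 57.8 and lin-53/nra-2 at 55.0. Here htz-1 encodes the histone variant H2A.Z, wapl-1 the cohesin release factor, and set-16 a histone H3 lysine methyltransferase. Chaperone genes were found at cct-8/Y55F3AR.2 with 70.4, mig-5/cct-1 with 58.6 and Y22D7AL.10/hsp-60 with 58.2. The rest of the 25 were larp-1/wip-1 (72.9), rps-19/hsr-9 (66.6), pdi-3/ubql-1 (62.7), rps-20/ekl-4 (60.1), rab-18/kbp-4 (59.3), tim-1/Y75B8A.23 (58.7), let-70/klc-1 (56.1), npp-3/top-2 (55.5), mrps-7/Y57G11C.3 (53.3) and prp-19/K10D2.5 (52.2). All 25 were found in both replicate lists, with ranks from 9 to 377 in replicate 1 and from 5 to 826 in replicate 2.

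At the lower limit of the rule stood Y59E9AL.36/nbet-1, ranked 2977 with a signal value of 14.7, and snf-10/pap-1, ranked 2996. Just outside it were catp-6/mtr-4, ranked 3016, and coa-3/F35D11.4, ranked 3029 with 14.6. At the limit of 1000 bp, T10E9.8/T10E9.2 lay inside at 1000 and 54 bp and cdc-14/ttc-4 at 300 and 987 bp. The sites at nep-26/mdt-22 (1003 and 81 bp) and sqv-3/vha-1 (104 and 1004 bp) lay outside. The pair nep-26/mdt-22 has a second site that is a member.

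Across the 356 members the median signal value was 22.4 (quartiles 18.3 and 31.9), and the authors' list of reproducible peaks, thresholded on the irreproducible discovery rate (IDR) of paired ranks, held 127 of them (35.7%, Wilson interval 30.9 to 40.8). Of all 2411 autosomal sites 26.6% were in that list. The thresholded list consists of the strongest pooled entries, so both values follow the signal value that chose the sites. One-direction sites had a median of 20.8 and 30.0% in that list, and intron sites 19.1 and 23.3%.

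The single replicates give a view of each site in lists called separately, although the pooled list was made from the same reads. An entry of both replicate lists overlapped 308 members (86.5%, 82.6 to 89.7), against 80.1% of all autosomal sites and 84.2% (81.5 to 86.6) of one-direction sites. An entry of replicate 1 alone overlapped 45 and of replicate 2 alone 3, where the lists hold 30000 and 16385 entries. The 3 without an entry of replicate 1 were rpl-9/lpd-7, gcy-33/cpr-9 and nep-26/mdt-22. Among the 3000 strongest of both replicates were 186 members (52.2%), against 44.5% of one-direction sites. The median rank of the 308 was 1442.5 in replicate 1 and 1015.5 in replicate 2. For one-direction sites these medians were 1335 and 1524, the other way round.

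**Figure D2:**
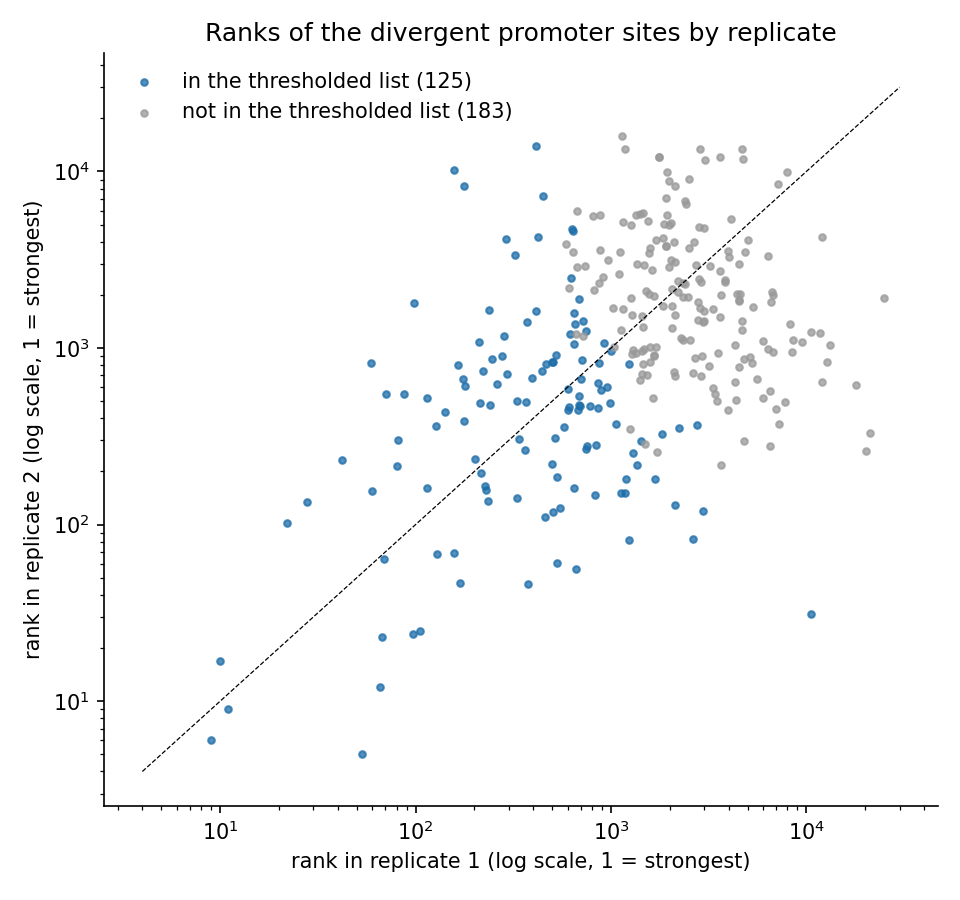
Each point is 1 of the 308 sites found in both replicate lists, by its rank in replicate 1 and in replicate 2 (log scales, 1 = strongest entry). Blue points, 125 sites, are in the thresholded list and grey points, 183 sites, are not. The dashed line marks equal ranks, and 174 sites ranked higher in replicate 2.

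Some members differed greatly between the replicates, and a pair of small heat shock genes was among them. The site between F44E5.4 and F44E5.5 ranked 157 in replicate 1 and 10202 in replicate 2. That of hsp-16.2/hsp-16.41, which encode small heat shock proteins, ranked 177 in replicate 1 and 8292 in replicate 2. The list of replicate 1 gave this pair a signal value of 34.9 and that of replicate 2 gave 2.99, each on its own scale. Y77E11A.7/jtr-1 ranked 412 and 13872 in replicates 1 and 2, and Y67H2A.2/micu-1, with a regulator of the mitochondrial calcium uniporter, ranked 447 and 7266. These 4 sites hold the ESRE core, described below. C34E10.10/atp-2, with ranks 98 and 1801, had the next largest rank ratio after Y77E11A.7/jtr-1 and does not hold it.

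Sites with large differences the other way were attf-2/F09G2.2, which ranked 10513 in replicate 1 and 31 in replicate 2, and rps-15/F36A2.9, with ranks 2616 and 83. Y71H2AM.20/nduc-2 ranked 662 in replicate 1 and 56 in replicate 2. None of the 20 members with the largest rank ratio in favour of replicate 2 held the ESRE core, and 4 of the 20 in favour of replicate 1 did. Over all 308 members in both lists, 28 held it, so these small counts are not far from that share. The 20 in favour of replicate 1 include both sites of chn-1/T09B4.2, which share their replicate entries. Over the 28 members with the core in both lists, the median rank was 785 in replicate 1 and 2092.5 in replicate 2. Over the 35 ribosomal protein members in both lists it was 1350 in replicate 1 and 672 in replicate 2, and 26 of the 35 ranked higher in replicate 2. Of all 308 members in both lists, 174 ranked higher in replicate 2. The reason was not tested. The labels give the replicates separate worm samples and libraries, with the same strain and stage.

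Of the gene lists, ribosomal proteins had the highest share of genes with a site among those in divergent pairs. Of 81 autosomal genes for cytosolic ribosomal proteins, 40 (49.4%, Wilson interval 38.8 to 60.0) had a divergent site at the 5' end, against 4.25% of all 17242 autosomal protein-coding genes. Only 49 of the 81 stand in a divergent pair at all, so 81.6% of those that could have a member had one, against 15.0% of all 4876 genes in such pairs. Large-subunit genes had 23 of 48 and small-subunit genes 17 of 33. One-direction sites were found at 11 of the 48 and 7 of the 33, against 753 of all 17242 genes. Sites at ribosomal protein genes were thus not particular to divergent pairs. The 40 genes share 37 sites, and 3 of these lie between a pair of ribosomal protein genes, rpl-39/rps-30 (33.7), rps-14/rpl-36 (31.2) and rps-10/rpl-24.1 (20.4). These members were chosen with earlier results for ribosomal protein genes known, so their count is not independent of them.

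The site was not always nearest the ribosomal protein gene. At the 34 sites with 1 such gene it was nearer the partner's 5' end at 22 and nearer the ribosomal one at 12. Over the 40 genes the median distance was 300 bp to the ribosomal protein gene and 231 bp to the partner. At rpl-31/sac-2 the site stood 261 bp from rpl-31 and 44 bp from sac-2. At rps-19/hsr-9 it stood 303 bp from rps-19 and 142 bp from hsr-9. At rpl-12/lin-54 it lay 54 bp from rpl-12 and 339 bp from lin-54, the other way round.

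Other genes used by most cells were also found at shares above the background. The cytosolic chaperonin, which folds actin and tubulin, had 4 of 8 genes (Wilson interval 21.5 to 78.5%), slightly above the share of all ribosomal protein genes: cct-8, cct-1, cct-7 (33.0) and cct-6 (19.6). All 8 stand in divergent pairs. Nuclear pore and transport genes had 11 of 43 (25.6%, Wilson interval 14.9 to 40.2), with npp-3 at 55.5 and npp-14 at 35.4. Respiratory chain and ATP synthase genes had 17 of 71 (23.9%, 15.5 to 35.0). The highest were nduc-2 of complex I at 49.5 and atp-2, for a catalytic ATP synthase subunit, at 48.2, then nduf-2.2 at 46.5 and ant-1.1, the ADP/ATP carrier, at 45.2. Spliceosome and RNA processing genes had 19 of 81 (23.5%, 15.6 to 33.8), with prp-19 at 52.2, prp-8 at 47.0 and prp-40 at 44.7. Both the pairs rsp-2/rsp-1 (28.9) and snr-3/rsp-5 (28.0) join splicing genes. One-direction sites were found at 8 of the 43 nuclear pore and 9 of the 71 respiratory genes. They were found at 9 of the 81 spliceosome genes and 0 of the 8 chaperonin genes, against 753 of all 17242 genes.

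Heat shock and DnaJ genes had 11 of 50 (22.0%), among them hsp-60 and hsp-110 (43.8), whose partner rpn-3 encodes a proteasome subunit. Translation factors had 10 of 47 (21.3%), with eef-2 at 42.4 and eef-1A.1 at 41.4, both elongation factors. DNA replication genes had 7 of 37, nucleolar genes 7 of 40 and the proteasome list 7 of 41. Mitochondrial ribosomal protein genes had 10 of 70 (14.3%), the highest being mrps-7, mrpl-12 and mrpl-49. Membrane trafficking genes had 15 of 106 (14.2%), with rab-18 at 59.3 and rab-5 at 44.5. RNA polymerase and general transcription genes had 10 of 74, chromatin regulators 10 of 76 and cell division genes 10 of 84. In each of the lists of this paragraph and the one before, the lower Wilson limit of the share was above the background of 4.25%. These shares also depend on how many genes of a list stand in divergent pairs. Of the genes that do, 10 of 44 for cell division (22.7%, Wilson interval 12.8 to 36.99) and 7 of 26 of the proteasome list (26.9%, 13.7 to 46.1) had a site, and both intervals include the background of 15.0% for such genes. In the other lists of these 2 paragraphs the lower limit was above 15.0%, from 18.0% in membrane trafficking to 29.2% in heat shock and DnaJ genes.

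**Figure D3:**
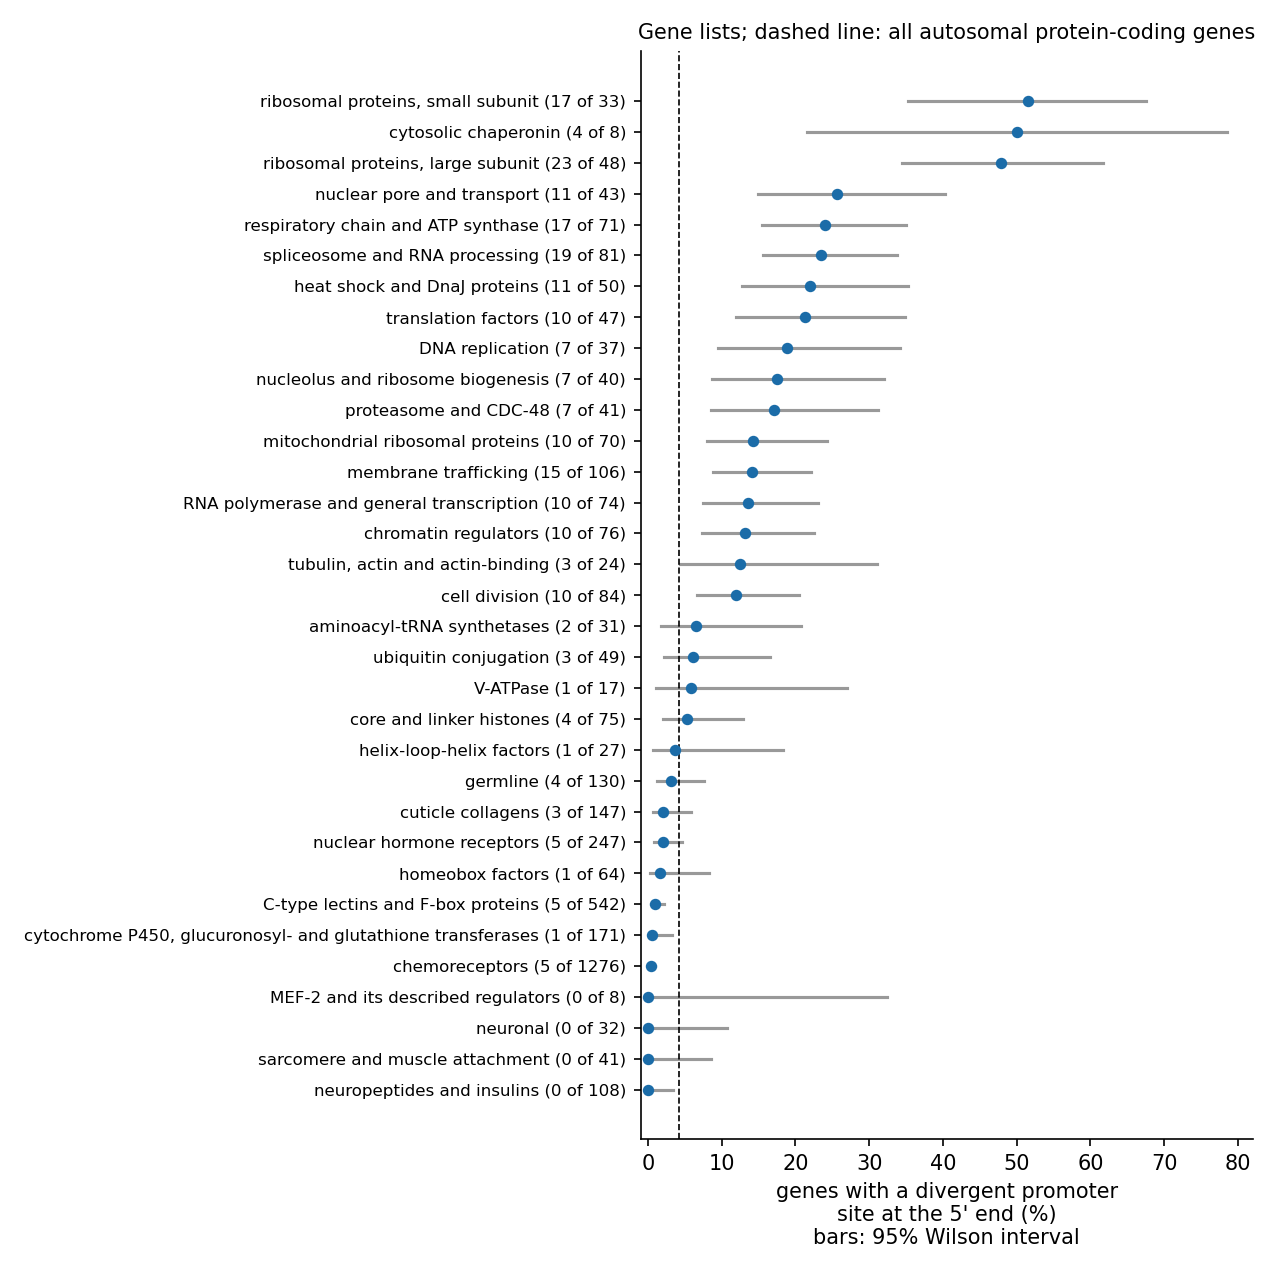
For each gene list, the share of its autosomal genes with a divergent promoter site at the 5' end (point, in %) and its 95% Wilson interval (bar); the counts stand beside each name. The dashed line is the share of all autosomal protein-coding genes, 4.25%, and the ribosomal protein lists and the chaperonin lie furthest above it.

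Tubulin, actin and actin-binding genes had 3 of 24 (12.5%, Wilson interval 4.34 to 31.0), with a lower limit close to the background of 4.25%. Lists that sat near or under the background included several with wide intervals. Aminoacyl-tRNA synthetases had 2 of 31 genes, ubiquitin conjugation 3 of 49, the V-ATPase 1 of 17 (vha-8, 42.3) and helix-loop-helix factors 1 of 27 (aha-1, 25.5). The germline list had 4 of 130 and cuticle collagens 3 of 147. Core and linker histones had 4 of 75. Of the 62 that stand in divergent pairs 6.45% had a site (Wilson interval 2.54 to 15.4). That interval includes the background of 15.0% for genes in such pairs. The sites of the histone genes were weak, 15.4 at his-35/his-41 and 14.9 at his-67/his-68. The near-identical histone gene copies can share reads, so these values are uncertain.

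Several large families of cell-type genes had few divergent sites. Chemoreceptors had 5 of 1276 genes (0.392%, Wilson interval 0.167 to 0.914), and 1.79% of the 280 in divergent pairs. The strongest of the 5 sites was rsr-1/sri-5 (35.2), whose partner encodes an SR-related splicing protein. C-type lectin and F-box genes had 5 of 542 (0.923%), and 2.84% of the 176 in divergent pairs. The transferase list with cytochrome P450 had 1 of 171. Nuclear hormone receptors had 5 of 247 (Wilson interval 0.868 to 4.65) and homeobox factors 1 of 64 (0.276 to 8.33), ceh-38 at 49.2, and both intervals include 4.25%. Of the genes of these families in divergent pairs, 11.4% of 44 receptors and 11.1% of 9 homeobox factors had a site, near the background of 15.0%. Neuropeptides and insulins had 0 of 108, sarcomere and muscle attachment genes 0 of 41, neuronal genes 0 of 32 and MEF-2 with its described regulators 0 of 8. Only 3 of the sarcomere genes, 2 of the neuronal genes and 1 of the MEF-2 list stand in divergent pairs, so nearly all of these genes had no place in which a divergent site could be found. A count of 0 of 41 allows a share of up to 8.57% (upper Wilson limit). One-direction sites were found at 6 of the 32 neuronal genes and 4 of the 8 in the MEF-2 list. They were found at 4 of the 41 sarcomere genes and 0 of the 108 neuropeptides and insulins. Of all 17242 autosomal protein-coding genes, 753 had a one-direction site. The counts of 0 thus hold for divergent sites only.

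Of the 356 members, 35 had a gene of these lists on both sides, 150 on 1 side and 171 on neither. Beside those already named, both genes were in a list at eef-1A.1/rfc-4 (41.4), rpl-28/mrpl-49 (31.7), rpl-36.A/nuo-1 (29.3), orc-5/cyb-1 (22.6), which joins an origin recognition subunit with a mitotic cyclin, ran-1/dkc-1 (20.9), vps-51/lin-35 (19.8) and tlf-1/cdk-8 (17.4). Small RNA genes overlapped 8 members, with 3 for transfer RNAs, 3 for small nucleolar RNAs, 1 for a microRNA and 1 for a small nuclear RNA.

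The centres of the sites were rich in G and C between dips. In steps of 25 bp the mean GC content was 49.4% at the site, 30.2% at 125 bp before it and 30.8% at 125 bp after it. One-direction sites had 45.2% at the site and 36.0% and 35.3% at those distances, so the peak was higher and the dips were deeper at divergent sites. Over the window of 201 bp the median was 40.3% at members, 37.8% in flanking windows of the same length centred 500 bp away and 33.3% in the middle of the 1490 divergent pairs with no pooled entry. Over the same length one-direction sites had a median of 40.8%, intergenic sites 41.3%, intron sites 42.3% and sites on X 43.3%, all above the members. Members in the thresholded list had a median of 42.8% and the others 38.8%.

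**Figure D4:**
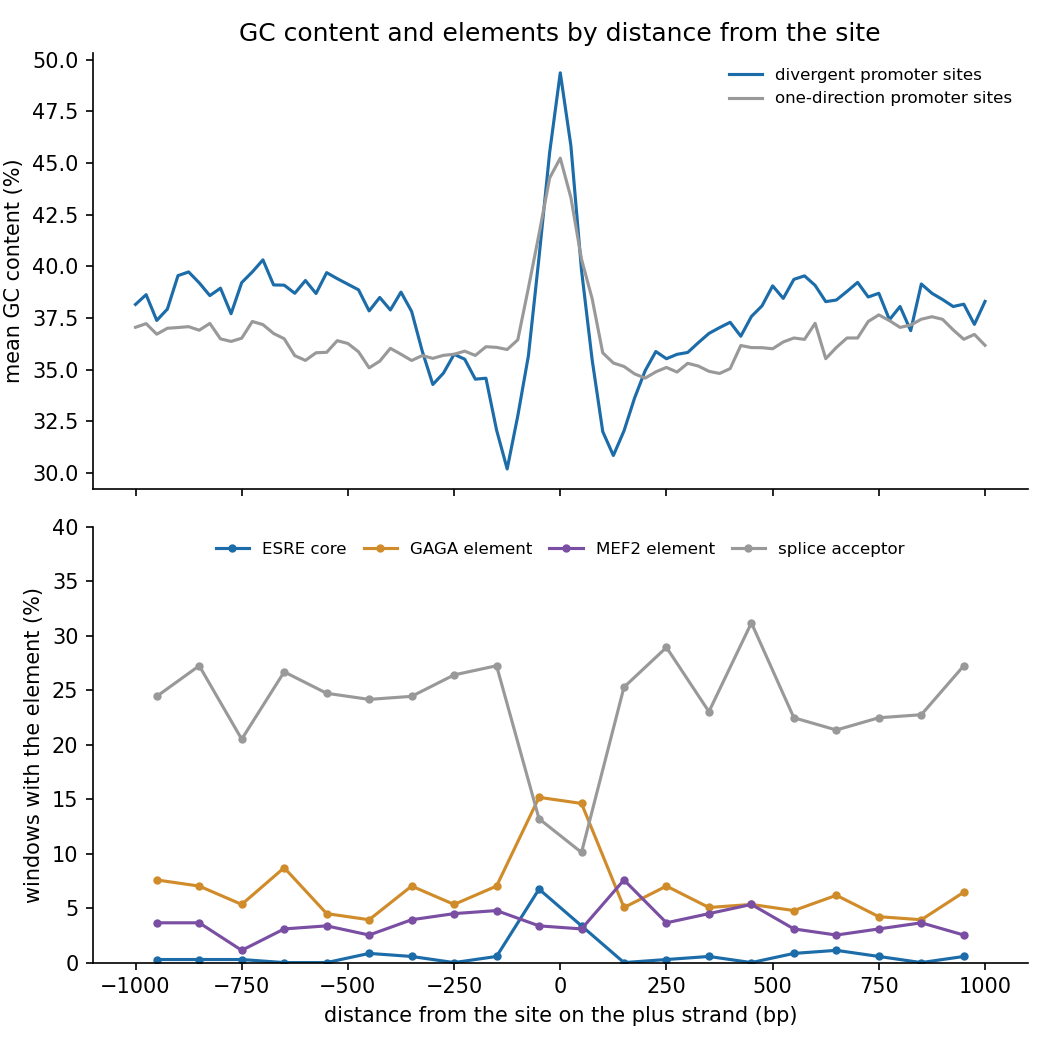
Upper part: mean GC content (%) in steps of 25 bp by distance from the site in bp, at the 356 divergent promoter sites (blue) and the 766 one-direction sites (grey). Lower part: share of 101 bp windows (%) with the ESRE core, GAGA element, MEF2 element or splice acceptor by distance from the divergent sites; the ESRE core and GAGA element are highest beside the site, and the splice acceptor lowest.

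The element bound by MEF2 factors was not more frequent at the sites than around them. Elements were searched on both strands. The MEF2 element was found in 23 windows (6.46%, Wilson interval 4.34 to 9.51), against 7.30% (5.61 to 9.45) of flanks and 7.79% (6.53 to 9.26) of the middles of divergent pairs with no pooled entry. In the middles of divergent pairs with a member it was in 39 of 353 (11.05%, 8.19 to 14.7). That share was higher than these, but its interval overlaps all of theirs. Among other sites it was in 6.66% of one-direction, 7.47% of intron, 4.98% of intergenic and 4.41% of X sites. The stricter form of the element was found at 1 member, rnp-6/rde-10, against 1.12% of flanks and 0.604% of the middles of pairs with no pooled entry. The 25 copies lay a median of 71.5 bp from the site, and 6 within 50 bp. The strongest members with the element were mig-5/cct-1 (58.6), lin-7/elof-1 (34.9), tag-65/ccz-1 (33.4) and rnp-6/rde-10 (25.7). It was in 3 of 127 thresholded members (2.36%) and in 20 of the 229 others (8.73%), the set with the lower GC content.

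The ESRE core, TGCGTCTC, stood out close to the sites. In C. elegans this element is known from promoters of genes that answer to ethanol, heat and mitochondrial stress. It was found at 34 members (9.55%, Wilson interval 6.92 to 13.05), against 0.843% (0.387 to 1.83) of flanks and 1.21% (0.766 to 1.90) of the middles of divergent pairs with no pooled entry. One-direction sites had it at 14.1% (11.8 to 16.7) and intron sites at 13.1% (10.5 to 16.2), so it was not particular to divergent sites. Of 36 copies, 25 lay within 50 bp of the site, and the median distance was 32 bp. Copies from some of the strongest members are aligned here in the orientation of the core, which is in capitals, on the strand and at the place given for each. They were read at chrIV:8432937-8432966 (minus) for T26A8.4/pdtf-1, chrIII:13643701-13643730 (minus) for drr-2/set-16, chrII:11874792-11874821 (minus) for npp-3/top-2, chrIV:14767877-14767906 (plus) for mrps-7/Y57G11C.3, chrV:1805106-1805135 (plus) for hsp-16.2/hsp-16.41 and chrII:11759494-11759523 (minus) for F44E5.4/F44E5.5.
T26A8.4/pdtf-1: agagcaatgtcTGCGTCTCtgactggtttt
drr-2/set-16: ctctgccgcacTGCGTCTCtctggcactgt
npp-3/top-2: gtttttgtgtcTGCGTCTCttacggaaatg
mrps-7/Y57G11C.3: cttgcatactcTGCGTCTCgtctttttgca
hsp-16.2/hsp-16.41: cattttccgtcTGCGTCTCtttgcacccac
F44E5.4/F44E5.5: ctccaacaatcTGCGTCTCtgttgccagct

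The bases beside the core were shared too. Over the 27 copies outside chromosome I, 24 (88.9%) had C just before the core, 21 (77.8%) had T before that and 15 (55.6%) had T just after it. The set joins heat shock genes with genes of other roles, such as set-16, the nucleoporin gene npp-3 with the topoisomerase gene top-2, and mrps-7, for a mitochondrial ribosomal protein. Members with the core had a median signal value of 23.8 and those without it 22.2.

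Some other elements were also more frequent at the sites than in both backgrounds. GAGAGA was in 28.4% of members (Wilson interval 23.9 to 33.3), against 8.99% of flanks and 10.5% of pair middles. One-direction sites had it at 37.7% (34.4 to 41.2), intron sites at 48.5% and intergenic sites at 48.3%, so divergent sites had the lowest share of these. GCGCGAA, the letters of an E2F-like element, was in 26 members (7.30%, 5.03 to 10.5), against 1.40% of flanks and 1.74% of pair middles. One-direction sites had it at 4.44% (3.19 to 6.14), an interval that overlaps that of the members. Intron sites had 2.00% and intergenic sites 1.40%. Among the 26 was rpl-12/lin-54. GGGCGG, an Sp1-like element, was in 9.83% of members, against 3.65% of flanks and 4.97% of pair middles. One-direction sites had it at 8.62% (6.83 to 10.8), which overlaps the interval of the members (7.15 to 13.4).

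TGATAA and TTTCAG were less frequent at the sites than in both backgrounds. TGATAA was in 10.1% of members, against 18.96% of flanks and 21.4% of pair middles. One-direction sites had it at 12.9% (Wilson interval 10.7 to 15.5), which overlaps the interval of the members (7.39 to 13.7). TATAAA was in 12.4% of members (Wilson interval 9.34 to 16.2), 16.4% of flanks (13.9 to 19.3), whose interval overlaps, and 27.7% of pair middles. The T run TTTTTTT was in 35.7% of members (30.9 to 40.8), against 25.7% of flanks (22.6 to 29.0) and 39.6% of pair middles (37.1 to 42.1). TTTCAG, the splice acceptor sequence that also receives spliced leaders, was in 22.2% of members, 47.1% of flanks and 32.8% of pair middles. One-direction sites had it at 20.9%, intron sites at 19.1% and intergenic sites at 17.0%, so its low share was not particular to divergent sites. At sites between the ends the farther 5' end was a median of 354 bp away. Many flanks centred 500 bp off thus lie past a 5' end, and the part of this in the shares was not tested. The heat shock element GAANNTTC was in 14.3% of members (Wilson interval 11.07 to 18.3), 15.4% of flanks and 14.1% of pair middles. One-direction sites had it at 9.01% (7.18 to 11.2), an interval that just overlaps that of the members. Intron sites had it at 7.10%, intergenic sites at 7.48% and X sites at 4.24%. GC content differs between these sets, and its part in the shares was not tested.

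**Figure D5:**
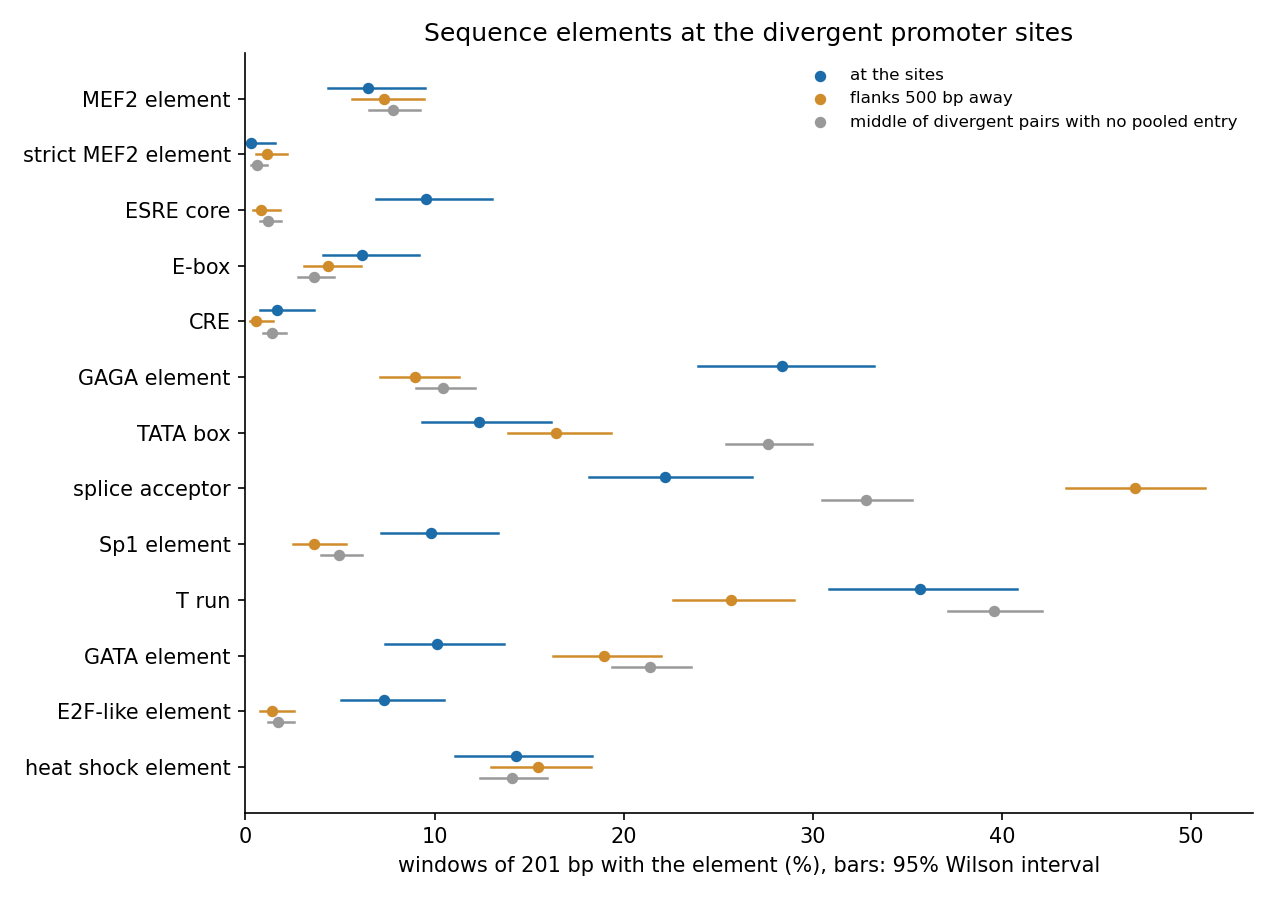
Share of windows of 201 bp (%) with each element, at the 356 divergent promoter sites (blue), in flanks 500 bp away (orange) and in the middle of 1490 divergent pairs with no pooled entry (grey), with 95% Wilson intervals as bars. The ESRE core, GAGA element and E2F-like element have their blue points to the right of the other colours, and the MEF2 element does not.

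Longer words recurred among the sites. They were picked because they are frequent at members, after the values had been seen, so their share there is a description. AGAGACGCAGA, which contains the ESRE core on the other strand, was found at 18 members, 1 of 712 flanks and 13 of 1490 pair middles. It has 2088 copies in the nuclear genome. It was at 49 of 766 one-direction, 54 of 642 intergenic and 30 of 549 intron sites, so it was not particular to divergent sites. ACTCCTCTCGG was found at 13 members, 0 of 712 flanks and 0 of 1490 pair middles, and it has 262 copies in the nuclear genome. Sites with it were hmgs-1/F25B4.4, cux-7/C07H6.2, fbxb-85/hex-3 and rde-4/cox-14. CAAGCGCGCTC was found at 13 members, 1 flank and 5 pair middles, with 810 copies in the genome, and TGCGCCTTTAA at 13 members, 5 flanks and 27 pair middles, with 2354 copies. CGCAAACACCG was found at 11 members, 0 flanks and 6 pair middles, with 887 copies. CGTAAATCGAC was found at 11 members, 1 flank, 4 pair middles and 6 one-direction sites, with 2223 copies.

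Any of the 6 words was present at 72 members (20.2%, Wilson interval 16.4 to 24.7), against 1.12% of flanks and 3.56% of the middles of divergent pairs with no pooled entry. The words were picked for their frequency at these members, so a higher share there follows from the choice and shows no enrichment. One-direction sites had one at 11.5% (9.42 to 13.9), intergenic sites at 8.88% and intron sites at 6.38%. CAAGCGCGCTC and TGCGCCTTTAA were found at 0 intron and 0 intergenic sites, but at 7 and 10 one-direction sites. ACTCCTCTCGG was at 11 one-direction sites and CGCAAACACCG at 10. Ribosomal protein genes, found at 37 of all 356 members (10.4%), stood beside 3 of the 6 words. CGTAAATCGAC was found at 5 such members of 11, those of rpl-15, rpl-20, rps-12, rpl-28 and rpl-34, TGCGCCTTTAA at 3 of 13, those of rpl-31, rpl-36.A and rps-6, and CAAGCGCGCTC at 3 of 13. The other 3 words were at 0 members with a ribosomal protein gene.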

How the data were processed

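Per the labels, MEF-2 ChIP-seq libraries of 2 biological replicates of L1 larvae were called against a control. The sources used here name no aligner, peak caller or IDR limit. The deposited ce11 lists hold a signal value per interval, made by the authors' caller, for the pooled replicates (28182 entries), each replicate (30000 and 16385) and the thresholded set (832). The 4 lists on ce10 were not used, since the annotation and genome are on WBcel235. Without read counts the depth of a library, and any floor, is unknown.

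The gene models are those of Ensembl release 115, and bases were read from the RefSeq genome. A divergent pair is a pair of neighbouring 5' ends on opposite strands whose windows of 1000 bp upstream to 200 bp downstream overlap. Lists were joined by an overlap of at least 1 bp, so neighbouring members can share a replicate entry. Elements and GC content were taken within 100 bp of the site, in windows of 201 bp, and in flanks centred 500 bp away. With 1 group, and members chosen by the pooled values, no test was run; shares carry 95% Wilson intervals (scipy 1.17.1, Python 3.11.15, numpy 2.4.6). The rule and the element search were tested on simulated sites and sequences.

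The members, 33 gene lists and 13 elements were chosen with earlier results of these data known. Named pairs are the 25 strongest members, up to 4 per gene list and for the MEF2 element and ESRE core, pairs with both genes in a list, the member nearest mef-2 and those at the limits of the rule. Pairs named for their ranks by replicate or for the words of 11 bases were chosen after their values were seen, and so were the aligned ESRE copies. Genes were put in lists by their symbols. The pattern for chemoreceptors was corrected to the receptor families after a misplaced gene had been seen. Alternatives were each replicate alone, other list sizes, a narrower gene window, ordered 5' ends and the middle of the interval as the site. Further ones left out sites near mef-2 and unc-119, or used other element windows or a stricter MEF2 element.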

Additional observations from a re-analysis of the deposited data

How the results depend on the processing

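Of 93 values of 11 results under the alternatives, 61 stayed close to the reported value and 32 moved. A change of direction was not checked. For shares, close meant inside the Wilson interval of the reported value. For the number of sites the limit was wide, and counts from 243 to 504 were called close to 356. No member lies near mef-2 or unc-119, and the site was nearly always the middle of the interval. These settings could change little, and all their values are among the 61. No paired analysis was possible because the data form 1 group. Each replicate alone gave 12.4 to 14.2% of autosomal sites as divergent, 34.0 to 43.3% of them thresholded, 80.9 to 87.4% in both lists, a mean GC content of 39.8 to 40.7% and 12.02 to 13.8% of divergent pairs with a site. Median signal values were not run there, since the scales differ. Of the 356 members, 268 (75.3%) overlapped one chosen from replicate 1 alone and 243 (68.3%) one from replicate 2 alone.

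Keeping as many sites as the thresholded list has entries gave 133 members (20.1% of autosomal sites), with a median signal value of 36.8, 95.5% thresholded, 97.7% in both replicates, a median gap of 510 bp and a mean GC content of 43.3%. There 2.26% held a MEF2 element, 27.2% of ribosomal protein genes and 5.48% of pairs had a site. The 6000 strongest gave 10.6%, 18.8, 25.2%, 77.2%, 516.5 bp and 39.4% for the first of these measures in the same order, and 20.3% of pairs. The narrower gene window gave 10.1% of autosomal sites, a gap of 398 bp, a mean GC content of 39.8% and 38.3% of ribosomal protein genes. Within 50 bp of the site the mean GC content was 45.6%, and 1.12% held a MEF2 and 6.46% an ESRE core element. Within 150 bp the mean GC content was 37.5% and 15.7% held a MEF2 element. Within the usual 100 bp the strict MEF2 element was in 0.281%. The causes were not tested. Depth, which is unknown, limits how far a site missing from a replicate list can be read.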
